A study of Homo sapiens with 12 samples.

Results

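Ferroptosis is an iron-dependent form of cell death in which peroxides build up in membrane phospholipids. The 10 genes described here, SLC7A11, SLC3A2, GPX4, ACSL4, AIFM2, TFRC, FTH1, FTL, HMOX1 and NQO1, encode steps of cystine uptake, lipid peroxide defence, lipid supply and iron handling that set a cell's sensitivity to it. They were chosen by name from the 40173 Ensembl gene IDs of the expression table, and all 10 were among the 12773 IDs whose mean reached 2 TPM in a condition, the genes tested. TPM is a gene's share of the transcripts of a library, corrected for length and scaled to one total. Cystine enters through the exchanger formed by SLC7A11 and SLC3A2 and is the source of cysteine for glutathione, which GPX4 uses to reduce phospholipid peroxides. ACSL4 activates polyunsaturated fatty acids for insertion into phospholipids, the substrate that is oxidised. TFRC brings transferrin-bound iron into the cell, ferritin (FTH1 and FTL) stores it, and HMOX1 releases it from haem. Melanoma cells that have lost their melanocytic differentiation are known to be more sensitive to ferroptosis, and interferon gamma (IFNγ) is known to lower cystine uptake in some tumour cells.

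The RNA came from 624Mel, an established human melanoma cell line, in 4 conditions with 3 libraries each. By transfection, cells received a control siRNA (siCTRL) or one to MITF (siMITF), the melanocyte lineage transcription factor whose loss was used as a model of dedifferentiation. From 24 h after transfection, cells of either kind received 5 ng/mL IFNγ for 24 h or none, and all were collected at the same time. The comparisons ask what MITF knockdown does without and with IFNγ, what IFNγ does in either background, and whether the IFNγ effect differs between the backgrounds. All values are from 1 cell line and from a transient knockdown that left some MITF RNA.

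MITF ran from 158 to 246 TPM in the siCTRL libraries with or without IFNγ and from 36.0 to 55.1 TPM in the siMITF libraries. IRF1, a transcription factor induced by IFNγ, was at 88.0 and 155 TPM on average in the IFNγ-treated siCTRL and siMITF libraries against 2.49 and 3.08 TPM in the untreated ones. The melanocytic markers MLANA, PMEL, TYR, DCT and SOX10 were at 15.2 TPM or more in every library, but their levels differed between the siRNAs. Without IFNγ, MLANA, PMEL and DCT averaged 475, 4827 and 244 TPM in siCTRL and 17.2, 1078 and 22.4 TPM in siMITF libraries. TYR and SOX10 averaged 367 and 263 TPM in siCTRL and 223 and 226 TPM in siMITF libraries. Of 11 markers of fibroblasts, immune cells, keratinocytes and endothelium, 10 stayed at or below 1.24 TPM, CD3E was listed at 0 throughout, and LUM ran from 2.07 to 7.42 TPM. Read numbers cannot be recovered from TPM, so the depth behind each value, and with it the counting error, is unknown. Genes of the mitochondrial chromosome took 7.42% to 16.9% of the TPM, and in every condition replicate 2 had the lowest share. In every condition replicate 2 also had the highest TPM of SLC7A11, SLC3A2, ACSL4, AIFM2, TFRC, HMOX1 and NQO1. The part of this difference in the results was not tested, but each member's value after rescaling to the TPM of the other chromosomes is given below where it changes a call.

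Iron-handling mRNAs carry a known regulatory hairpin, the iron responsive element (IRE). In the 5′ UTR of the ferritin mRNAs the iron regulatory proteins block translation at this element, and in the 3′ UTR of TFRC they protect the mRNA from decay, so that iron starvation lowers ferritin protein and raises TFRC mRNA. The sites are shown because they split these iron genes into one in which the element can affect the RNA level and a pair in which it acts on translation, which RNA levels do not show. Whether the element had a part in any difference given below was not tested. They were found in the MANE Select transcripts of GENCODE 44 (GRCh38) with the pattern CNNNNNCAGTGN followed by 5 bases that pair with the 5 before the loop (G with U allowed), a search chosen after the expression values were seen. Capitals mark the 6-base loop, and each is written as DNA on the strand of the mRNA:
FTH1, 5′ UTR, chr11:61967573-61967602 (minus strand): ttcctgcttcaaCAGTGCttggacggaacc
FTL, 5′ UTR, chr19:48965335-48965364 (plus strand): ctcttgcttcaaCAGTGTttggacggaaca
TFRC, 3′ UTR, chr3:196050978-196051007 (minus strand): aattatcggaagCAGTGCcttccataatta
TFRC, 3′ UTR, chr3:196050574-196050603 (minus strand): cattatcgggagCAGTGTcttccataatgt
TFRC, 3′ UTR, chr3:196050509-196050538 (minus strand): ctgtatcggagaCAGTGAtctccatatgtt
TFRC, 3′ UTR, chr3:196050462-196050491 (minus strand): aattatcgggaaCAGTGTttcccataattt

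The ferritin windows are the same at 26 of 30 bases. The other 7 genes held no match to this pattern. Of 19061 MANE Select transcripts, 0.0997% held a match in the 5′ UTR and 0.635% in the 3′ UTR, and TFRC was the only one with 4 or more matches in its 3′ UTR. A match describes the letters and is not a measurement of binding.

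In untreated siCTRL cells the levels in TPM, which account for transcript length, covered a wide range. FTH1 was the highest at 4320 ± 65.2 TPM (mean ± SD, n = 3), followed by FTL at 1452 ± 59.6, NQO1 at 395 ± 33.4, TFRC at 354 ± 71.6, SLC3A2 at 324 ± 44.3 and GPX4 at 265 ± 9.49 TPM. HMOX1 had 37.9 ± 2.75 TPM, ACSL4 36.1 ± 3.01, AIFM2 30.7 ± 1.94 and SLC7A11 21.1 ± 4.45 TPM. The libraries of NQO1 and TFRC, of TFRC and SLC3A2, of HMOX1 and ACSL4 and of ACSL4 and AIFM2 overlapped, so the order within these pairs does not stand out from the spread. By mean TPM over all libraries FTH1 ranked 29 among the 12773 tested genes and SLC7A11 ranked 5892.

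**Figure D1:**
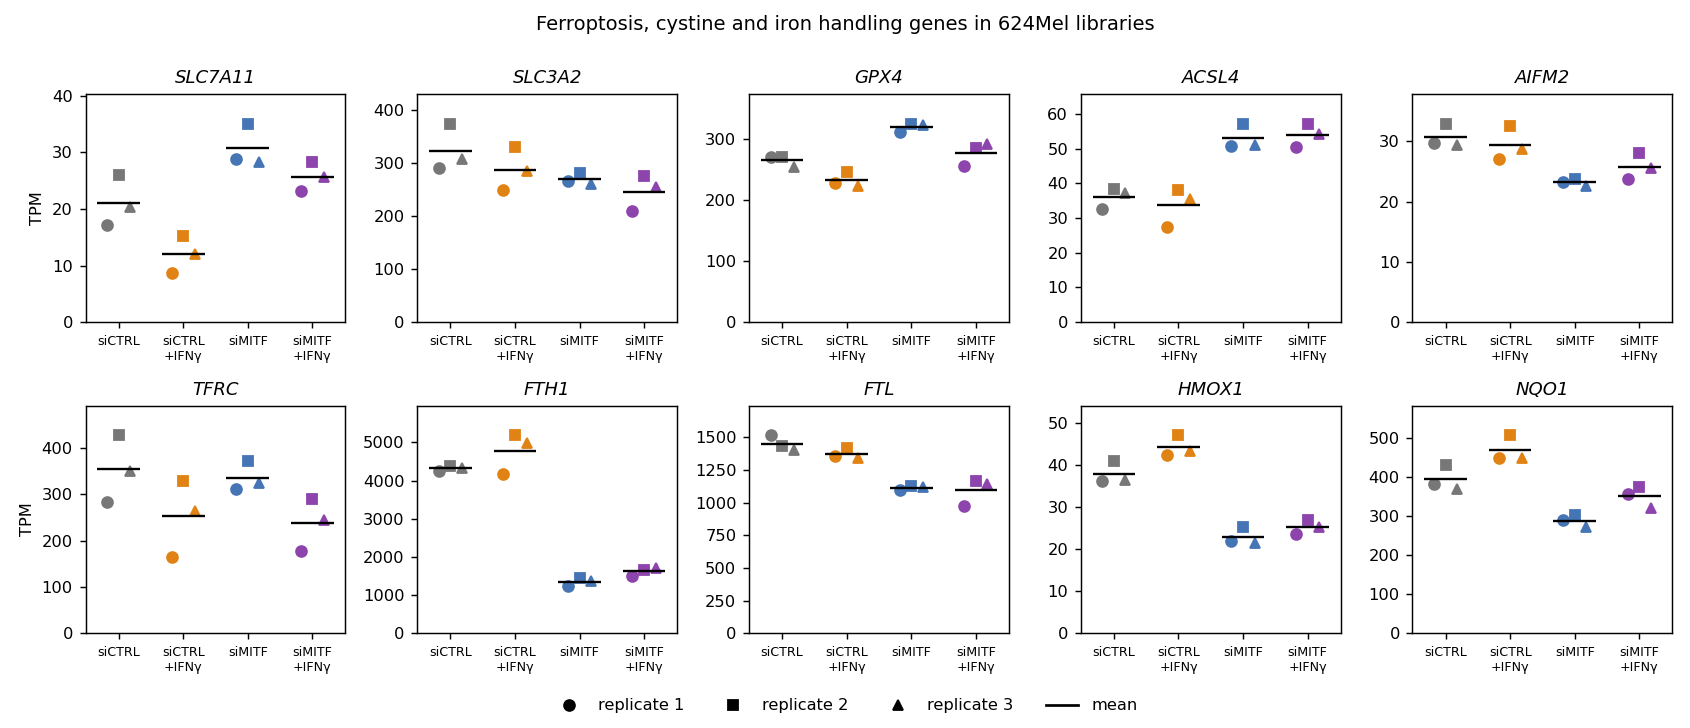
TPM of the 10 genes in each of the 12 libraries, 1 panel a gene, with a vertical axis from 0; marker shape gives the replicate number and the line the mean of the condition. FTH1 falls from between 4247 and 4374 TPM in siCTRL to between 1235 and 1447 TPM in siMITF libraries, while SLC7A11 is lowest in siCTRL cells with IFNγ, at 8.76 to 15.2 TPM.

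Differences between conditions were tested on log2(TPM + 1) with limma in one fit over all tested genes, and p-values were adjusted over these genes by the Benjamini-Hochberg method. A gene counts below as higher or lower with an adjusted p under 0.05. Of the 10 genes, 3 were higher and 5 lower in siMITF than in siCTRL libraries without IFNγ, against 34.8% of all tested genes called in either direction (21.0% higher and 13.8% lower). With IFNγ 3 were higher and 4 lower, against 33.1% of all tested genes (18.4% higher and 14.7% lower). Fewer genes were called for IFNγ than for siMITF, among all tested genes as well as among the 10. For IFNγ 0 of the 10 were higher and 1 lower in siCTRL cells, where 12.9% of tested genes were called (6.8% higher and 6.14% lower). In siMITF cells 2 were higher and 1 lower, where 20.2% were called (7.99% higher and 12.2% lower). Libraries with the same replicate number deviated together, and with this number as a block in the fit, 2 were higher and 3 lower in siCTRL cells (25.7% of tested genes) and 2 higher and 2 lower in siMITF cells (35.7%). The median log2 difference of the 10 genes was -0.32 for siMITF without IFNγ and -0.20 with IFNγ, beside 0.06 and 0.03 over all tested genes. For IFNγ it was -0.09 in siCTRL and 0.00 in siMITF cells, beside -0.07 and -0.10 over all tested genes. A stricter rule also asked for a log2 difference of 1 or more either way and for 2 TPM in either group. By it FTH1 was called in both siMITF comparisons and SLC7A11 in the one with IFNγ, where 6.1% (without) and 5.68% (with IFNγ) of tested genes were called, and none of the 10 for IFNγ, where 2.52% (siCTRL) and 2.95% (siMITF) were. The libraries of the compared groups did not overlap for 9 of the 10 genes for siMITF without IFNγ (55.0% of tested genes), 7 with IFNγ (38.3%), 4 for IFNγ in siCTRL (29.7%) and 4 in siMITF cells (40.5%). In libraries of bulk RNA, fewer expressing cells and less RNA per cell cannot be told apart.

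**Figure D2:**
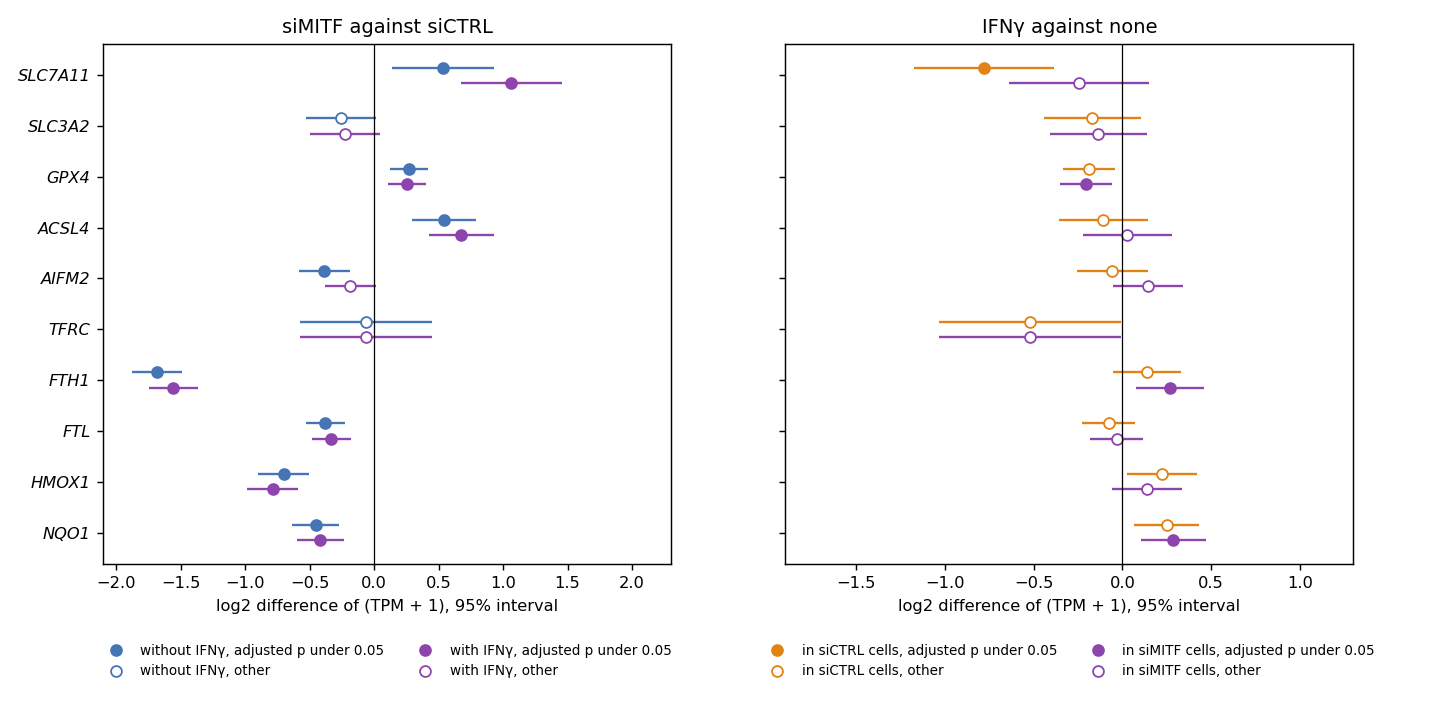
Log2 difference of (TPM + 1) with its 95% interval from limma for the 10 genes, siMITF against siCTRL on the left and IFNγ against none on the right; filled points have an adjusted p under 0.05. FTH1 lies at -1.68 and -1.56 for siMITF, and the intervals of SLC7A11 for IFNγ run from -1.17 to -0.38 in siCTRL cells and from -0.64 to 0.15 in siMITF cells.

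SLC7A11 (ENSG00000151012, chromosome 4 from 138164097 to 138242349, minus strand) encodes the transport subunit of the cystine and glutamate exchanger. MITF knockdown raised its RNA and IFNγ lowered it in siCTRL cells. The 3 siCTRL libraries had 17.1, 25.9 and 20.3 TPM, and the siCTRL libraries with IFNγ had 8.76, 15.2 and 12.05 TPM. The siMITF libraries had 28.9, 35.0 and 28.3 TPM without and 23.1, 28.4 and 25.7 TPM with IFNγ. Every siCTRL library with IFNγ lay below every library of the other conditions, and every untreated siMITF library lay above every siCTRL library.

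Between siMITF and siCTRL libraries the log2 difference of SLC7A11 was 0.53 without IFNγ (SE 0.18, 95% interval 0.14 to 0.93, limma adjusted p = 0.0381), a 1.45-fold higher value. With IFNγ it was 1.07 (95% interval 0.67 to 1.46, adjusted p = 0.000644), a 2.09-fold higher value. The call without IFNγ was lost on leaving out any of 7 of the 12 libraries, namely siCTRL replicate 1 (adjusted p = 0.153) or 3 (0.0995), siMITF replicate 1 (0.0657), 2 (0.139) or 3 (0.0579), siCTRL + IFNγ replicate 3 (0.0517) and siMITF + IFNγ replicate 3 (0.0503). The call with IFNγ was kept in all 12 of them, with differences from 0.87 to 1.24. The fits that left out a library did not use the replicate number. With it as a block and all libraries, both differences were called (limma adjusted p = 0.000529 without and 1.75e-06 with IFNγ).

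IFNγ lowered SLC7A11 in siCTRL cells by a log2 difference of -0.78 (SE 0.18, 95% interval -1.17 to -0.38, limma adjusted p = 0.0134). Between libraries of the same replicate number the treated one was lower by 48.9%, 41.5% and 40.8%. In siMITF cells the difference was -0.25 (95% interval -0.64 to 0.15, adjusted p = 0.369), with values lower by 19.8%, 19.0% and 9.41% between libraries of the same number. The difference between these IFNγ effects, 0.53, did not pass the test (95% interval -0.02 to 1.09, unadjusted p = 0.0595, limma adjusted p = 0.696, blocked 0.0649), so a weaker IFNγ effect in siMITF cells is not shown. Without siCTRL replicate 2 the fall in siCTRL cells was -0.63 with an adjusted p of 0.0669. With all libraries and the replicate block this fall had a limma adjusted p of 7.08e-05. After rescaling without mitochondrial genes the SLC7A11 differences were 0.53, 1.10 and -0.77 for siMITF without IFNγ, siMITF with IFNγ and IFNγ in siCTRL cells, all still called. With no filter on low values the first and last were no longer called (limma adjusted p = 0.105 and 0.0535).

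SLC3A2 (ENSG00000168003, chromosome 11 from 62856004 to 62888880, plus strand) encodes the heavy chain that carries SLC7A11 and other amino acid transporters to the cell surface. The libraries had 290, 374 and 307 TPM in siCTRL and 265, 282 and 261 TPM in siMITF, and with IFNγ 248, 330 and 286 against 209, 275 and 255 TPM. Its mean TPM was 15.3 times that of SLC7A11 in siCTRL and 8.77 times in siMITF cells, and with IFNγ 24.0 and 9.58 times. SLC3A2 did not share the higher values that SLC7A11 had in siMITF cells: its log2 difference was -0.26 without IFNγ (95% interval -0.53 to 0.02, limma adjusted p = 0.139) and -0.22 with IFNγ (adjusted p = 0.198). With the replicate number as a block both were called lower (adjusted p = 0.00775 and 0.0166), and the first also after rescaling without mitochondrial genes (0.0431). For IFNγ the differences were -0.17 in siCTRL and -0.14 in siMITF cells, with adjusted p of 0.441 and 0.476.

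GPX4 (ENSG00000167468, chromosome 19 from 1103982 to 1106791, plus strand), the selenoenzyme that reduces phospholipid peroxides, was higher after MITF knockdown. It had 271, 271 and 254 TPM in siCTRL libraries and 311, 325 and 324 TPM in siMITF libraries, and with IFNγ 229, 246 and 223 against 256, 286 and 292 TPM. The siMITF libraries lay above the siCTRL libraries at either IFNγ level, by a log2 difference of 0.27 without IFNγ (SE 0.07, limma adjusted p = 0.00757) and 0.25 with it (adjusted p = 0.0113). The latter was lost without siCTRL + IFNγ replicate 3 (adjusted p = 0.0553) and in a fit of those 2 conditions alone (0.0854). It was called with the replicate block (limma adjusted p = 0.00318). Every IFNγ-treated library was below the untreated libraries of its siRNA, by log2 differences of -0.19 in siCTRL (limma adjusted p = 0.0882, 0.0292 with the replicate block and 0.0431 without siMITF + IFNγ replicate 1) and -0.21 in siMITF cells (adjusted p = 0.0483). Of the 12 fits that left out 1 library, only those without siCTRL + IFNγ replicate 1 or 2 or siMITF + IFNγ replicate 3 kept the call in siMITF cells, with adjusted p up to 0.151 in the rest, and rescaling without mitochondrial genes gave 0.0502. The replicate block kept this call (limma adjusted p = 0.0152).

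AIFM2 (ENSG00000042286, chromosome 10 from 70098223 to 70132934, minus strand), also known as FSP1, regenerates reduced coenzyme Q and limits lipid peroxidation without GPX4. It moved opposite to GPX4 after MITF knockdown, from 29.7, 32.9 and 29.4 TPM in siCTRL to 23.3, 23.8 and 22.6 TPM in siMITF libraries. The groups did not overlap, and the log2 difference was -0.38 (SE 0.09, limma adjusted p = 0.00586). With IFNγ the values were 27.0, 32.6 and 28.7 against 23.7, 28.2 and 25.6 TPM, which overlapped, and the difference of -0.18 passed with the replicate block (limma adjusted p = 0.148, and 0.0370 with the block) or another scaling (0.0473 after rescaling without mitochondrial genes). IFNγ against none gave AIFM2 log2 differences of -0.06 in siCTRL and 0.14 in siMITF cells, the latter called only when libraries were scaled otherwise (limma adjusted p = 0.298, and 0.0390 after rescaling without mitochondrial genes). That the siMITF difference was smaller with IFNγ was not shown, since the interaction of 0.20 had a limma adjusted p of 0.838.

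ACSL4 (ENSG00000068366, chromosome X from 109624244 to 109733403, minus strand), the enzyme that supplies activated polyunsaturated fatty acids, was higher in siMITF cells whether or not IFNγ was present. The siCTRL libraries had 32.7, 38.3 and 37.3 TPM and the siMITF libraries 50.8, 57.1 and 51.0 TPM. With IFNγ they had 27.3, 38.2 and 35.4 against 50.6, 57.0 and 54.2 TPM. No siMITF library fell among the siCTRL libraries. The log2 differences were 0.54 (SE 0.12, limma adjusted p = 0.00288), or 1.46-fold, and 0.68 (adjusted p = 0.000646), or 1.60-fold, and were called in every fit that left out 1 library. IFNγ left ACSL4 with differences of -0.11 in siCTRL (95% interval -0.36 to 0.14) and 0.03 in siMITF cells (95% interval -0.23 to 0.28), neither of which passed.

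TFRC (ENSG00000072274, chromosome 3 from 196012511 to 196082153, minus strand), the transferrin receptor, had its larger differences with IFNγ and not with MITF knockdown. In siCTRL cells it had 284, 427 and 350 TPM without and 165, 329 and 263 TPM with IFNγ. In siMITF cells it had 311, 371 and 323 TPM without and 178, 290 and 243 TPM with IFNγ. Replicate 2 was highest and replicate 1 lowest in every condition, and the siCTRL groups with and without IFNγ overlapped. Against the library of the same number, the IFNγ-treated one was lower by 42.0%, 23.0% and 24.8% in siCTRL and by 42.8%, 22.0% and 24.6% in siMITF cells.

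The log2 difference of TFRC with IFNγ was -0.52 in both backgrounds, with a 95% interval of -1.04 to -0.01 in each. Without regard to replicate number it did not pass (limma adjusted p = 0.183 in siCTRL and 0.142 in siMITF cells), and with the number as a block it was called lower in both (adjusted p = 0.00327 and 0.00233). Centring each library on its median also gave a call in siMITF cells (limma adjusted p = 0.0495). For siMITF against siCTRL the TFRC difference was -0.06 at either IFNγ level (95% interval -0.58 to 0.45 without and -0.57 to 0.45 with IFNγ). The interaction was 0.00 (95% interval -0.73 to 0.73).

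FTH1 (ENSG00000167996, chromosome 11 from 61959718 to 61967634, minus strand) encodes the ferritin heavy chain, the subunit that oxidises iron for storage, and showed the largest difference of the 10 genes. It had 4247, 4374 and 4337 TPM in siCTRL libraries and 1235, 1447 and 1357 TPM in siMITF libraries. With IFNγ it had 4172, 5186 and 4983 TPM against 1489, 1668 and 1706 TPM. Every siMITF library was below every siCTRL library. The log2 difference was -1.68 without IFNγ (SE 0.09, 95% interval -1.88 to -1.49, limma adjusted p = 2.53e-08) and -1.56 with IFNγ (95% interval -1.75 to -1.36, adjusted p = 5.64e-08), so siCTRL cells had 3.21-fold and 2.94-fold more. Both calls held whichever library was left out, from -1.74 to -1.62 and from -1.65 to -1.49.

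FTL (ENSG00000087086, chromosome 19 from 48965309 to 48966879, plus strand), the light chain that aids mineral formation in the ferritin shell, fell less. It had 1517, 1438 and 1400 TPM in siCTRL libraries and 1100, 1130 and 1118 TPM in siMITF libraries, and with IFNγ 1361, 1417 and 1344 against 976, 1164 and 1143 TPM. These groups did not overlap either. The log2 differences were -0.38 (SE 0.07, limma adjusted p = 0.00103) and -0.33 (adjusted p = 0.00266).

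FTH1 and FTL RNA fell unevenly. The ratio of FTH1 to FTL within a library was 2.80, 3.04 and 3.10 in siCTRL and 3.06, 3.66 and 3.71 in siCTRL + IFNγ libraries. In siMITF it was 1.12, 1.28 and 1.21, and in siMITF + IFNγ 1.53, 1.43 and 1.49. On the log2 scale the ratio was lower in siMITF libraries by -1.27, with p = 0.005 in an exact two-sided permutation of the siRNA labels within each IFNγ level, the smallest p that its 400 labelings allow. The labels were permuted without regard to replicate number, although libraries of the same number deviated together. This p therefore treats the libraries as exchangeable, which that pairing limits. The ratio was chosen after the FTH1 and FTL values were seen. Those values already set its direction, so this p adds no separate support to the uneven fall. Leaving out any 1 library gave -1.31 to -1.24. A ratio within a library shows unequal change and does not by itself say which chain accounts for it. Taken singly, the log2 differences for siMITF without and with IFNγ were -1.68 and -1.56 for FTH1 and -0.38 and -0.33 for FTL.

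With IFNγ the differences of ferritin RNA were small. The log2 difference of FTH1 was 0.14 in siCTRL (95% interval -0.05 to 0.33, limma adjusted p = 0.352) and 0.27 in siMITF cells (95% interval 0.08 to 0.46, adjusted p = 0.0499). The latter is at the threshold: of the fits that left out 1 library, only those without siCTRL + IFNγ replicate 1 or 2 or siMITF + IFNγ replicate 1 kept it, and adjusted p reached 0.181. It was kept with the replicate block (limma adjusted p = 0.00293) and after rescaling without mitochondrial genes (0.00783). The differences of FTL were -0.08 and -0.03, and neither passed.

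**Figure D3:**
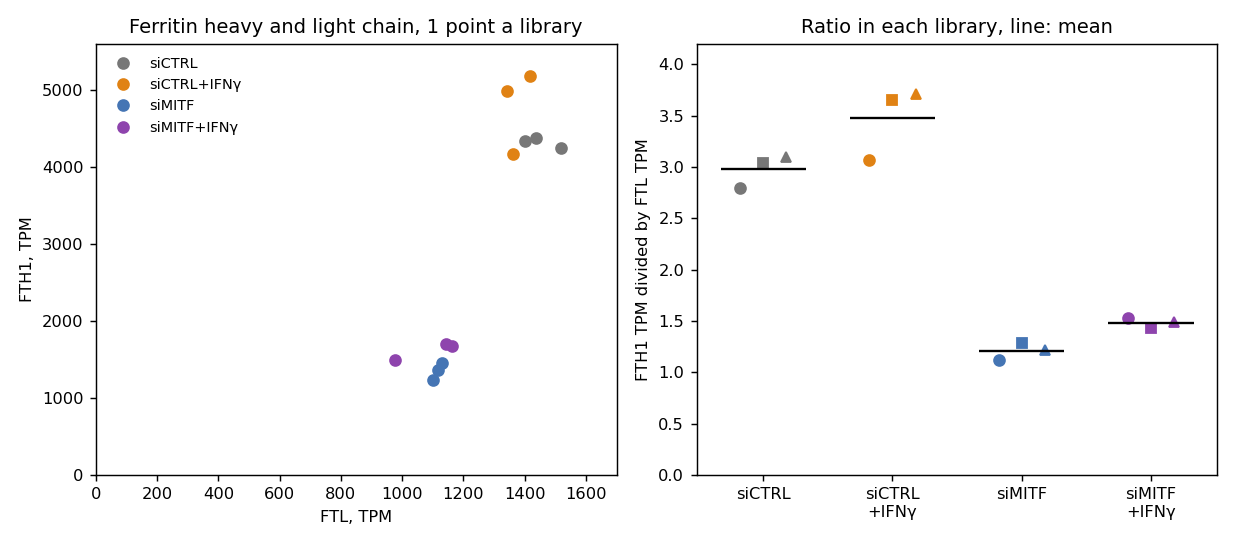
Left, TPM of FTH1 against TPM of FTL, 1 point a library, both axes from 0; right, FTH1 TPM divided by FTL TPM in each library by condition, with the mean as a line and the replicate number as marker shape. The ratio is 2.80 to 3.71 in the siCTRL libraries and at most 1.53 in the siMITF libraries.

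Ferritin genes have many processed copies, and 25 FTH1 and 16 FTL pseudogenes were listed in the table. Their summed TPM never exceeded 4.07 and 1.62 in a library, far below the parent genes. FTH1 also shares 607 exon bases with BEST1 on the opposite strand, and the library kit does not keep strand. BEST1 averaged 17.4 TPM in siCTRL libraries and 3.94 TPM in siMITF libraries, and 18.7 and 5.74 TPM with IFNγ. Reads over the shared bases cannot be assigned by strand, so the BEST1 values are uncertain. AIFM2 overlaps MACROH2A2 by 973 bases on the opposite strand and ACSL4 overlaps KCNE5 by 78 bases on the same strand, and both had means of 0.554 TPM or less. SLC7A11, NQO1 and TFRC overlap antisense long non-coding RNAs by 691, 347 and 191 exon bases. The gene IDs of these RNAs had no values in the expression table. Reads from them over the shared bases cannot be told apart by strand from reads of SLC7A11, NQO1 and TFRC, and their part was not tested.

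HMOX1 (ENSG00000100292, chromosome 22 from 35380361 to 35394214, plus strand), the enzyme that splits haem into biliverdin, carbon monoxide and iron, was lower after MITF knockdown. It had 36.2, 41.0 and 36.4 TPM in siCTRL and 21.9, 25.4 and 21.6 TPM in siMITF libraries. With IFNγ it had 42.4, 47.1 and 43.3 against 23.5, 27.1 and 25.3 TPM. The groups were fully apart at either IFNγ level. The log2 differences of -0.70 (SE 0.09, limma adjusted p = 6.88e-05) and -0.78 (adjusted p = 2.88e-05) mean 1.63-fold and 1.72-fold more in siCTRL cells, and were called in every fit that left out 1 library.

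NQO1 (ENSG00000181019, chromosome 16 from 69706996 to 69726668, minus strand), a quinone reductase and widely used readout of the oxidative stress factor NRF2, was also lower. Its libraries had 382, 433 and 370 TPM in siCTRL and 289, 304 and 272 TPM in siMITF, and with IFNγ 451, 508 and 449 against 358, 376 and 322 TPM. No libraries of the siRNA groups overlapped, and the log2 differences were -0.45 (SE 0.08, limma adjusted p = 0.00118) and -0.42 (adjusted p = 0.00222).

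HMOX1 and NQO1 had higher means with IFNγ. For NQO1 every IFNγ-treated library was above the untreated ones of its siRNA, with log2 differences of 0.25 in siCTRL (limma adjusted p = 0.0740, 0.00250 with the replicate block and 0.0454 without siCTRL replicate 2) and 0.29 in siMITF cells (adjusted p = 0.0310). The call in siMITF cells was lost without siMITF replicate 1 (adjusted p = 0.0803) or 3 (0.120) and without siMITF + IFNγ replicate 1 (0.0721) or 2 (0.104). It was kept with the replicate block (limma adjusted p = 0.000714). For HMOX1 the difference was 0.22 in siCTRL (limma adjusted p = 0.142, and 0.0162 with the replicate block) and 0.14 in siMITF cells (adjusted p = 0.316). After rescaling without mitochondrial genes, both genes were called higher in siCTRL cells (adjusted p = 0.0161 for HMOX1 and 0.00401 for NQO1), and HMOX1 also in siMITF cells (0.0485).

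The cells that had both treatments were also set against untreated siCTRL cells, which are the controls of the single effects too, so these values are not independent of those above. Here 1 of the 10 genes was higher and 5 were lower, against 44.5% of all tested genes called (21.1% higher and 23.4% lower). By the stricter rule FTH1 alone was called (8.75% of tested genes), and 6 of the 10 did not overlap (53.1%). ACSL4 was higher (log2 difference 0.57, limma adjusted p = 0.00159). FTH1 (-1.42), HMOX1 (-0.56) and FTL (-0.41) were lower, as were SLC3A2 (-0.39, limma adjusted p = 0.0229) and AIFM2 (-0.24, adjusted p = 0.0487). The SLC3A2 call was lost without siCTRL replicate 2 (adjusted p = 0.104) or siMITF + IFNγ replicate 1 (0.0857). The AIFM2 call was kept only without siCTRL + IFNγ replicate 1 or 2 or siMITF + IFNγ replicate 2, and without the others adjusted p reached 0.165. The replicate block kept the calls of SLC3A2 (limma adjusted p = 0.000324) and AIFM2 (0.00740). SLC7A11, which the treatments moved in opposite directions, ended at 0.29 (95% interval -0.11 to 0.68, limma adjusted p = 0.224, and 0.0202 with the replicate block). GPX4, whose siMITF and IFNγ differences also ran opposite ways, was at 0.06 (limma adjusted p = 0.469, and 0.362 with the replicate block). TFRC was at -0.58 (adjusted p = 0.0622, and 0.000447 with the block), and was called without siCTRL replicate 1 (0.0411), siCTRL + IFNγ replicate 1 (0.0181) or 2 (0.0403) or siMITF + IFNγ replicate 2 (0.0345). After rescaling without mitochondrial genes TFRC was at -0.54, called just under the threshold. NQO1 was at -0.17 (0.130, and 0.0107 with the block).

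No member passed the test of the interaction, the change of the IFNγ effect from siCTRL to siMITF cells, and 0 of 10 had an unadjusted limma p under 0.05, or 1, SLC7A11, with the replicate block. Over all tested genes 0.947% passed, and 2.16% with the block. Apart from SLC7A11 the interactions ran from -0.08 for HMOX1 to 0.20 for AIFM2, with limma adjusted p from 0.838 to 1.00.

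The other genes of these pathways were counted in 8 lists of 106 genes in all, of which 88 were tested and 78 are not among the 10. A gene may stand in more than 1 list, and the counts include the 10 genes. They are to be read against the shares of all tested genes given above: 21.0% higher and 13.8% lower for siMITF without IFNγ, and 18.4% and 14.7% with it. Of the 78 genes, 33 were called for siMITF without and 35 with IFNγ, and with the replicate block 47 in each, beside 47.7% and 46.3% of all tested genes. Among 13 tested genes of cystine uptake and glutathione metabolism, 3 were higher and 4 lower in siMITF than in siCTRL libraries without IFNγ, beside 21.0% higher and 13.8% lower of all tested genes. SLC1A5, the glutamine and neutral amino acid carrier, rose with SLC7A11, from 168, 176 and 169 TPM to 400, 419 and 392 TPM, a log2 difference of 1.23 (SE 0.06, limma adjusted p = 2.59e-08), and by 1.24 with IFNγ. For IFNγ the SLC1A5 differences of 0.17 in siCTRL and 0.18 in siMITF cells did not pass without and were called with the replicate block (limma adjusted p = 0.105 and 0.0676, blocked 0.0193 and 0.0117). GCLM, the modifier subunit of the enzyme that starts glutathione synthesis, moved the other way, by -0.58 (limma adjusted p = 0.00156), and rose with IFNγ by 0.77 in siCTRL and 0.87 in siMITF cells. GCLM was singled out after its values were seen.

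CHAC1, a glutathione-degrading enzyme induced by cystine shortage and by the integrated stress response, rose with IFNγ in siCTRL cells, from 6.78, 8.20 and 6.25 TPM to 30.5, 32.8 and 30.8 TPM. In siMITF cells it went from 4.58, 5.52 and 3.83 to 6.58, 6.76 and 6.65 TPM. The log2 differences were 2.01 (limma adjusted p = 7.24e-08) and 0.45 (adjusted p = 0.0180), and their difference of -1.56 passed the interaction test (SE 0.17, adjusted p = 0.000542). The small rise in siMITF cells was no longer called without siMITF replicate 1 (adjusted p = 0.0562) or 3 (0.0805). It was kept with the replicate block (limma adjusted p = 0.00247). The condition with the highest CHAC1 was the one with the lowest SLC7A11, a description over 4 conditions.

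Among 15 tested genes of lipid peroxide defence 3 were higher and 3 lower in siMITF libraries without IFNγ, a share near the 34.8% of all tested genes called in either direction, and none passed the stricter rule in any comparison. Of 14 tested genes of polyunsaturated lipid supply and oxidation, 3 were higher and 4 lower without IFNγ, beside 21.0% and 13.8% of all tested genes. FADS2, a desaturase of polyunsaturated fatty acid synthesis, rose with ACSL4, from 4.82, 4.73 and 5.58 TPM to 10.7, 11.8 and 11.8 TPM (log2 difference 1.04, limma adjusted p = 3.80e-05), and was also called higher with IFNγ. SCD, which makes monounsaturated fatty acids, fell from 173, 181 and 187 TPM to 114, 128 and 122 TPM (-0.57, adjusted p = 0.000863). With IFNγ SCD averaged 261 TPM in siCTRL libraries and 119 TPM in siMITF libraries. The SCD interaction of -0.55 passed with the replicate block (limma adjusted p = 0.141 without it, blocked 0.00865). SAT1, a polyamine acetyltransferase, rose with IFNγ by 0.34 in siCTRL and 0.93 in siMITF cells, and its interaction of 0.59 passed (limma adjusted p = 0.0103, and 0.0613 after centring each library on its median). SAT1 was named after its values were seen, as the other gene of the lists that passed the interaction test without the block. With the block SCD and SLC39A8 passed too, beside 2.16% of all tested genes.

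Of 7 tested genes of iron uptake, 2 were higher and 2 lower in siMITF libraries at either IFNγ level. Of all tested genes 21.0% were higher and 13.8% lower without IFNγ, and 18.4% and 14.7% with it. SLC11A2, the divalent metal transporter DMT1, fell from 67.9, 77.5 and 72.1 TPM to 28.3, 32.1 and 30.5 TPM, a log2 difference of -1.23 (SE 0.12, limma adjusted p = 4.44e-06). SLC39A8, a zinc and iron transporter also called ZIP8, rose from 17.6, 20.4 and 18.7 TPM to 47.4, 50.4 and 44.5 TPM, a difference of 1.28 (adjusted p = 9.41e-07). With the replicate block its IFNγ differences of -0.26 in siCTRL and 0.30 in siMITF cells were called (limma adjusted p = 0.127 and 0.0543, blocked 0.0186 and 0.00576), as was the SLC39A8 interaction of 0.56 (0.131, blocked 0.0113). Of the STEAP family, STEAP1 fell by -0.72 and STEAP3 rose by 0.88 (limma adjusted p = 3.46e-05 and 0.00284), STEAP3 being singled out after its values were seen. Between siMITF + IFNγ and siCTRL libraries STEAP1 had a log2 difference of -1.01.

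The list of iron storage, release and export held 10 genes, of which 5 were tested: FTH1, FTL, NCOA4, PCBP1 and PCBP2. FTMT, SLC40A1, HEPH, CP and HAMP did not reach a mean of 2 TPM in any condition, so the counts do not cover iron export. Of the 5, 0 were higher and 4 lower in siMITF libraries at either IFNγ level. Among all tested genes 13.8% (without) and 14.7% (with IFNγ) were lower. FTH1 and FTL are among the 4, and the others were the iron chaperones PCBP1 and PCBP2, at -0.18 and -0.34 without IFNγ, named after their values were seen. The PCBP2 difference had a limma adjusted p of 0.00137. That of PCBP1, 0.0468, stayed under the threshold only without siCTRL + IFNγ replicate 1 or 2 or siMITF + IFNγ replicate 1, and reached 0.157 without the others. The replicate block kept the calls of PCBP1 and PCBP2. Of 11 tested genes of iron regulation and mitochondrial iron, 1 was higher and 0 lower without IFNγ, beside 21.0% and 13.8% of all tested genes.

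Of 9 tested genes of haem synthesis and breakdown, 2 were higher and 4 lower in siMITF libraries without IFNγ, beside 21.0% and 13.8% of all tested genes. FECH, which inserts iron into haem, had a log2 difference of -0.78 (limma adjusted p = 0.0311; lost without siCTRL replicate 2 or 3 or siMITF replicate 1 or 2, up to 0.123) and reached -1.04 between siMITF + IFNγ and siCTRL libraries (adjusted p = 0.00517). The replicate block kept both of these FECH calls (limma adjusted p = 2.73e-05 and 1.47e-06). For IFNγ in siMITF cells FECH had -0.26, called with the block (limma adjusted p = 0.499 without it, blocked 0.0462). Of 22 tested NRF2 regulators and targets, 2 were higher and 9 lower without IFNγ and likewise with IFNγ, where 21.0% and 13.8% (without) and 18.4% and 14.7% (with IFNγ) of all tested genes were higher and lower. With the replicate block 18 and 17 of the 22 were called in either direction, beside 47.7% and 46.3% of all tested genes. FTH1, FTL, HMOX1 and NQO1 are 4 of the 9, and SLC7A11 is 1 of the 2. OSGIN1, a stress-induced growth inhibitor, fell from 31.4, 34.5 and 31.2 TPM to 11.6, 13.6 and 11.1 TPM, a log2 difference of -1.35 (SE 0.15, limma adjusted p = 2.06e-05). SQSTM1, the autophagy receptor p62, fell by -0.93 (adjusted p = 0.000139) and was singled out after its values were seen. The median log2 difference of the NRF2 list was -0.28 without IFNγ, beside 0.06 over all tested genes.

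With IFNγ against none in siCTRL cells, from 0 to 4 genes of each list passed in either direction: 4 of 13 in the cystine and glutathione list, 2 of 15 for lipid peroxide defence, 2 of 14 for polyunsaturated lipid, 1 of 7 for iron uptake, 0 of 5 for iron storage, 1 of 11 for iron regulation, 1 of 9 for haem and 2 of 22 for NRF2. Over all tested genes 12.9% passed. With the replicate block the counts were 7, 4, 5, 4, 0, 2, 3 and 5 in the same order, beside 25.7% of all tested genes. The 4 of the first list were SLC7A11 and GGCT, which were lower, and GCLM and CHAC1, which were higher. The GGCT difference of -0.28 (limma adjusted p = 0.0227) was no longer called without siCTRL replicate 1 (0.0662) or 2 (0.0966) or siCTRL + IFNγ replicate 1 (0.0659) or 3 (0.0975), with median centring (0.0566) or with only the conditions compared (0.0741). The replicate block kept the GGCT call.

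**Figure D4:**
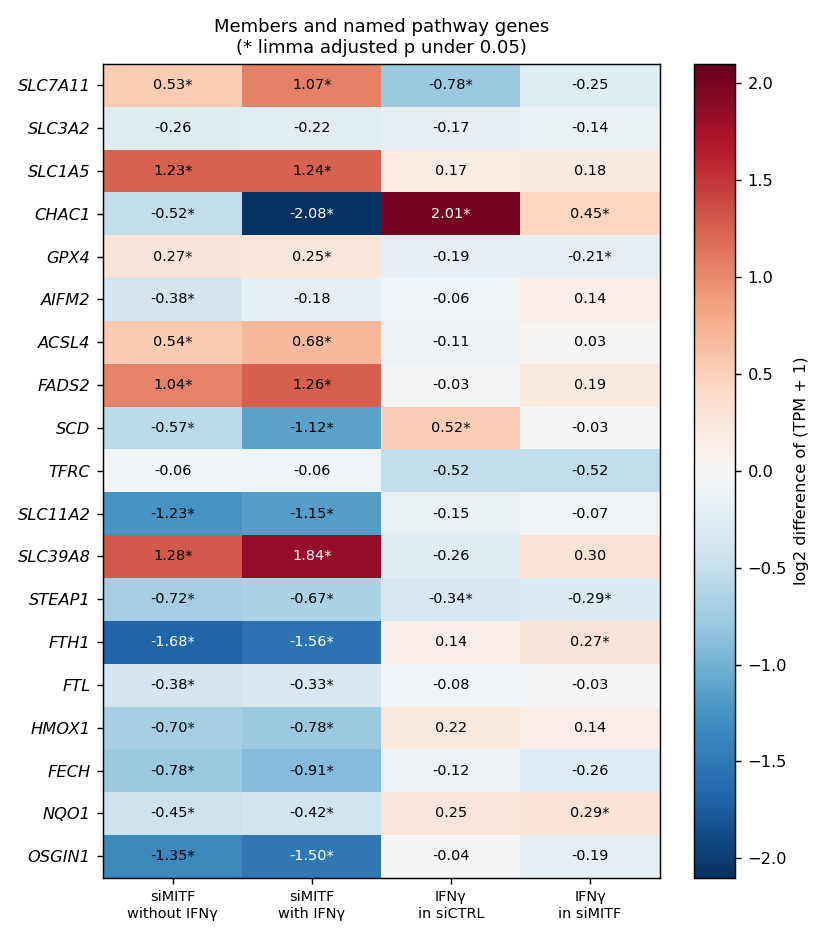
Log2 difference of (TPM + 1) of the 10 genes and 9 named pathway genes in 4 comparisons, with the value printed in each cell and an asterisk for a limma adjusted p under 0.05; red is higher and blue lower. The siMITF columns hold falls of FTH1 (-1.68) and SLC11A2 (-1.23) beside rises of SLC1A5 (1.23) and SLC39A8 (1.28), and the strongest value of the IFNγ columns is CHAC1 in siCTRL cells (2.01).

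RefSeq promoter windows of GRCh38.p14, 250 bases before to 50 after a start, were found for 7 of the genes in 11 windows. SLC7A11, FTH1 and HMOX1 had no entry. On both strands, the antioxidant response element core TGACNNNGC was in a window of AIFM2 and of SLC3A2 and in 13.3% of all 35116 windows. The palindromic E-box CACGTG, its longer form TCACGTG that overlaps it, and the M-box TCATGTG were in none of the 11 and in 7.26%, 3.71% and 2.92% of all. The core of the interferon-stimulated response element was in none of the 11 and in 3.57% of all. NQO1, whose well-known antioxidant response element lies further upstream, held no match here, which says only that the letters are not in the window.

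For the genes called by the stricter rule, the tested genes with the most similar pattern over the 12 libraries were found by Pearson correlation of log2(TPM + 1). For SLC7A11 they were TMTC2 (r = 0.993), NEK7 (0.982) and RCN2 (0.981), and for FTH1 they were LIMK1 (0.997), GM2A (0.995) and GPNMB (0.995). Mean TPM of TMTC2 was 12.9 in siCTRL and 18.4 in siMITF libraries and, with IFNγ, 8.75 and 15.5. Mean TPM of GPNMB, a melanosomal glycoprotein gene, was 641 and 186 and, with IFNγ, 678 and 211. The libraries share their conditions and replicate numbers, and these values only describe which genes moved alike.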

How the data were processed

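Per the labels, RNA of 624Mel cells was made into TruSeq RNA v2 libraries, which do not keep strand, and sequenced in 4 conditions with 3 libraries each. The authors trimmed reads with Trimmomatic 0.39, quantified Ensembl GRCh38 transcripts with kallisto and deposited TPM per gene. The Ensembl release and the way transcripts were joined to genes are not given in the sources used here. The authors tested differences with DESeq2 1.26.0 on counts, which were not used here.

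Here 1 was added to each TPM before taking log2, and limma 3.58.1 (R 4.3.3) was fitted to the 12773 of 40173 gene IDs with a mean of 2 TPM or more in a condition. The fit had 1 coefficient a condition, an intensity trend in the moderation of the spread, two-sided tests and Benjamini-Hochberg adjustment, and it was tested on simulated data. An exact permutation test of 3 libraries against 3 cannot go below p = 0.1. The methods describe all experiments as done in independent biological replicates, and the labels do not tie these libraries to separate cultures, so p-values measure the spread between these samples. No pair of libraries was identical. Replicate numbers were checked for pairing: after removal of condition means, the 18 pairs of libraries that share a number correlated at 0.10 to 0.63, all over 0.1, and the 36 other pairs at a median of -0.20. Blocked values are therefore given where they change a call of the 10 genes or of the pathway genes named by the rule, and by count for the other list genes. They are also given where losses of such a call on leaving out a library are described.

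Symbols and positions are from GENCODE 44, promoter windows from RefSeq GRCh38.p14. The TPM of the listed genes summed to between 975336 and 982632 a library. The 10 genes and the 8 pathway lists were chosen with earlier results of these data known. From each list, genes past the stricter rule in a comparison were named (at most 5), others by count or where said. Alternatives were other pseudocounts (0.1, 0.5), no filter, a mean of 5 TPM, quantile normalization, median centring, rescaling without mitochondrial genes, no trend, fits of only the conditions compared, the replicate block, pseudogenes added to their parents, and each library left out. Python 3.11.15 (numpy 2.4.6, pandas 2.3.3) made the tables and matplotlib 3.10.9 the plots.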

Additional observations from a re-analysis of the deposited data

Results flagged for a closer look

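Among the 88 tested genes of the 8 lists, the IFNγ effect differed between siCTRL and siMITF cells by the interaction test without the replicate block for 2 genes, neither of them among the 10. With the block it differed for 4, the others being SCD (-0.55, blocked limma adjusted p = 0.00865, 0.141 without the block) and SLC39A8 (0.56, blocked 0.0113, 0.131 without). For CHAC1 the interaction was -1.56 on the log2 scale (limma adjusted p = 0.000542, and 6.41e-05 with the replicate block), and the 3 siCTRL libraries with IFNγ, at 30.5 to 32.8 TPM, lay above all 9 others. For SAT1 it was 0.589 (limma adjusted p = 0.0103, and 0.00421 with the replicate block), with IFNγ-treated means of 702 (siCTRL) and 1044 TPM (siMITF) against 557 and 548 TPM without IFNγ.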

How the results depend on the processing

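Of 710 recomputed differences of the 10 genes under other settings, 645 kept their direction and side of the threshold, 37 were newly called, 21 were no longer called and 7 changed sign. Of 720 from leaving out a library these counts were 646, 6, 42 and 26. The number of the 10 genes called for IFNγ in siCTRL cells, 1, became 0 with no filter on low values, 3 each with quantile normalization, median centring and rescaling without mitochondrial genes, and 5 with the replicate block. For IFNγ in siMITF cells, 3 became 0 with no filter, 5 with median centring, 0 without the trend and 1 with only the conditions compared. Leaving out a library gave 1 to 2 and 0 to 3. By the stricter rule (for the interaction, adjusted p and a log2 difference over 1), a mean of 5 TPM left 245 of 377 of all tested genes for IFNγ in siMITF cells and 32 of 61 for the interaction, with fewer genes tested. Only differences that had not passed changed sign. Those of FTL became 0.014 (IFNγ in siCTRL) and -0.019 (interaction) with quantile normalization, and 0.0053 and 0.014 (IFNγ in siMITF) with median centring and rescaling. The GPX4 interaction became 0.0051 and 0.0074 under these, and that of TFRC -0.021 with quantile normalization. With a library left out, IFNγ differences ran from -0.20 to 0.030 (ACSL4) and -0.13 to 0.00011 (AIFM2) in siCTRL cells, and from -0.014 to 0.080 (ACSL4) and -0.079 to 0.048 (FTL) in siMITF cells. The siMITF difference of TFRC ran from -0.21 to 0.084 without and -0.34 to 0.16 with IFNγ. Interactions ran from -0.0039 to 0.23 (ACSL4), -0.00052 to 0.13 (FTL), -0.053 to 0.042 (GPX4), -0.032 to 0.098 (NQO1), -0.076 to 0.15 (SLC3A2) and -0.28 to 0.22 (TFRC). The block changed no call of the 10 genes beyond those given with their values above. Of the 78 other list genes it ended no call and added 14 (siMITF without IFNγ), 12 (siMITF with IFNγ), 12 (IFNγ in siCTRL), 14 (IFNγ in siMITF), 11 (both treatments) and 2 (interaction). The causes were not tested. TPM carry no depth, so counting error is unknown.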
